A study of Mus musculus with 31 samples.

Results

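The UDP-glycosyltransferases of the Ugt families, most of which transfer glucuronate, the cytosolic sulfotransferases and the soluble glutathione transferases of the mouse kidney were examined in wild-type and polycystic mice. Members were the genes whose symbols begin with Ugt1, Ugt2 or Ugt3, with Sult and a digit, or with Gsta, Gstk, Gstm, Gsto, Gstp, Gstt or Gstz and a digit, and that had at least 10 counts in at least 5 mice. Of 23509 genes in the count tables, 59 had such a symbol, and 40 met the count rule. These were 14 of 20 Ugt symbols, 8 of 18 Sult symbols and 18 of 21 Gst symbols. The rule itself uses no difference between groups. Of the 19 symbols below the count rule, 6 had no count in any mouse, and Ugt1a2, Ugt2b1, Ugt2b35 and Gstm3 reached 10 counts in 1 to 4 mice.

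These enzymes attach a polar group to drugs, hormones, bile pigments and toxic by-products of metabolism so that the product can be excreted. Glucuronosyltransferases lie in the endoplasmic reticulum and use UDP-glucuronate, sulfotransferases use the sulfate donor PAPS, and glutathione transferases join glutathione to reactive electrophiles such as the aldehydes of oxidised lipids. In the kidney, much of this conjugation takes place in the proximal tubule, whose cells also synthesise and break down glutathione.

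Pcy/CD1 mice carry the pcy allele on the CD-1 background and develop slowly progressing cystic kidneys. RGLS4326, a short chemically modified oligonucleotide that binds the seed region of miR-17, was given subcutaneously at 25 mg per kg to 14 Pcy mice, by month, from 5 weeks of age, and 12 Pcy mice received PBS by the same route. The study describes its dosed Pcy/CD1 mice as male. The comparison group was 5 male CD1 mice of matching age that carried no pcy allele and received no injection. All kidneys were taken at 30 weeks of age, and each mouse gave 1 library. Per the sample labels and the study's description PBS was injected weekly, although the labelled treatment protocol can be read as giving both agents by month, so injection frequency and RGLS4326 cannot be told apart. The study's methods name different suppliers for the Pcy/CD1 and the CD1 mice, so strain stock and the pcy allele cannot be told apart, and the untreated wild-type mice do not match the Pcy mice for injection.

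Libraries held 14892524 to 27459962 gene counts, with a median of 19961466. All kidneys expressed proximal tubule markers, whose summed level over 17 genes lay between 77643 and 94149 CPM in wild-type mice. CPM stands for counts per 1000000 counts, after scaling of library sizes by the trimmed mean of M-values (TMM). Wild-type mice 3 and 4 were more alike than any other pair within a group, with a chi-square of 2.56 per gene over 12792 genes where counting noise alone gives about 1, and were kept as separate mice as the labels list them. RGLS4326-treated mouse 9 stood apart from the other treated mice, with a proximal tubule sum of 74094 CPM and a fibroblast sum of 264 CPM, against ranges of 39650 to 67491 CPM and 504 to 1222 CPM in the other 13. Of its 9 summed marker levels 5 lay inside the wild-type range, among them those of injured tubule (1221 CPM), collecting duct (871 CPM) and macrophages (193 CPM), for which no Pcy PBS mouse did. It is labelled as a treated Pcy mouse and was kept as such. Values without this mouse are given beside the results that it moved most. In whole kidney, fewer cells of a type and less RNA per cell cannot be told apart.

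The members together took 0.678% of wild-type counts, and Ugt members made up most of this share. Summed over the 14 Ugt members, wild-type mice read 4044 to 4392 CPM, Pcy PBS mice 1038 to 2484 CPM with a median of 1761, and Pcy RGLS4326 mice 1610 to 3535 CPM with a median of 2288. No Pcy mouse reached the wild-type range, and the Pcy groups overlapped each other. The Ugt sum was 4260 ± 141 CPM in wild type (SD, n = 5), 1732 ± 526 CPM with PBS (SD, n = 12) and 2437 ± 567 CPM with RGLS4326 (SD, n = 14), and the last was 2353 ± 490 CPM in the 13 mice other than mouse 9. The 7 Sult members that entered the test summed to 771 ± 41.7, 441 ± 93.4 and 554 ± 94.0 CPM in the same order. The 18 Gst members summed to 1751 ± 113, 1568 ± 144 and 1591 ± 124 CPM, with overlapping ranges in all groups. Of all transferase counts, Ugt members therefore made up 62.8% in wild type, 46.3% with PBS and 53.2% with RGLS4326, and Gst members 25.8%, 41.9% and 34.7%. These sums are descriptions and were not tested.

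**Figure D1:**
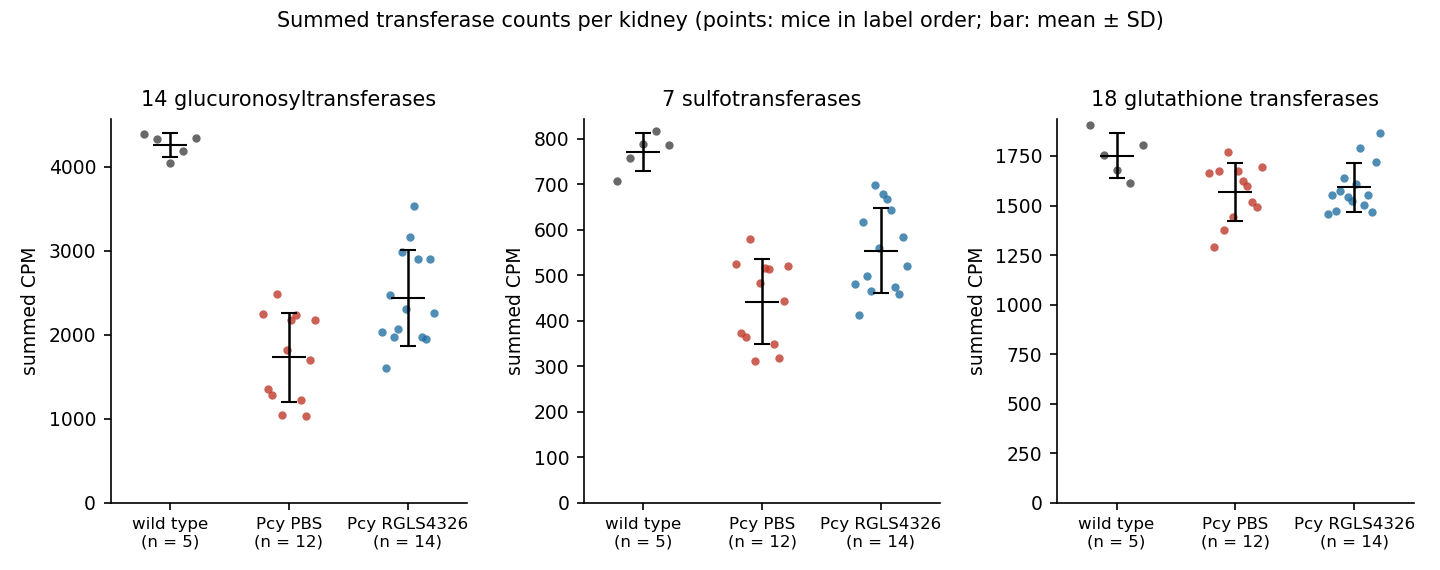
Summed CPM of the tested Ugt, Sult and Gst members (vertical axes) in each mouse, by group; bars show the mean and SD over 5 wild-type, 12 Pcy PBS and 14 Pcy RGLS4326 mice. The Ugt sums of all Pcy mice lie below the lowest wild-type value of 4044 CPM, whereas the Gst sums of the groups overlap.

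Levels were compared between genes as CPM per kb of exon sequence shared with no other gene of the same strand. Ugt2b38, at 742 ± 53.7 CPM per kb, and Ugt3a2, at 704 ± 56.1 CPM per kb, led in wild type (SD, n = 5), and their ranges overlapped. Gstm1 came next at 239 ± 23.4 CPM per kb, below both without overlap, followed by Sult1d1 at 187 ± 11.2 and Sult1c2 at 160 ± 29.8, which overlapped each other. Ugt1a10, at 120 CPM per kb, led the Ugt1 genes and did not differ beyond its spread from Ugt3a1 at 117 CPM per kb. At the bottom of the order, Sult4a1 read 0.0618 CPM per kb. With PBS, the order of the leading pair was exchanged and the third place was still held by Gstm1.

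The Pcy PBS kidneys were compared with wild type to find which transferases differ in cystic disease. Changes are given as log2 fold changes with standard errors, and a gene was called where its p, adjusted over 15185 tested genes, was under 0.05. Of the 39 members tested, 19 fell and 10 rose in Pcy PBS mice. Sult2a3, the remaining member, had at most 14 counts in any mouse and did not enter the test. Over all genes tested, 36.6% fell and 37.7% rose, and the members' shares were 48.7% and 25.6%. Of all genes called, 50.7% were higher, and with upper quartile scaling 61.7%. The median log2 fold change was −0.44 over the members, or −0.17 without wild-type mouse 5, and 0.01 over all genes with all mice. In 19 members, also 48.7%, no Pcy PBS mouse overlapped the wild-type range, against 42.2% of all genes. These include Sult4a1, which passed the filter on low counts only through Pcy mice, so its part in this count is a description.

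**Figure D2:**
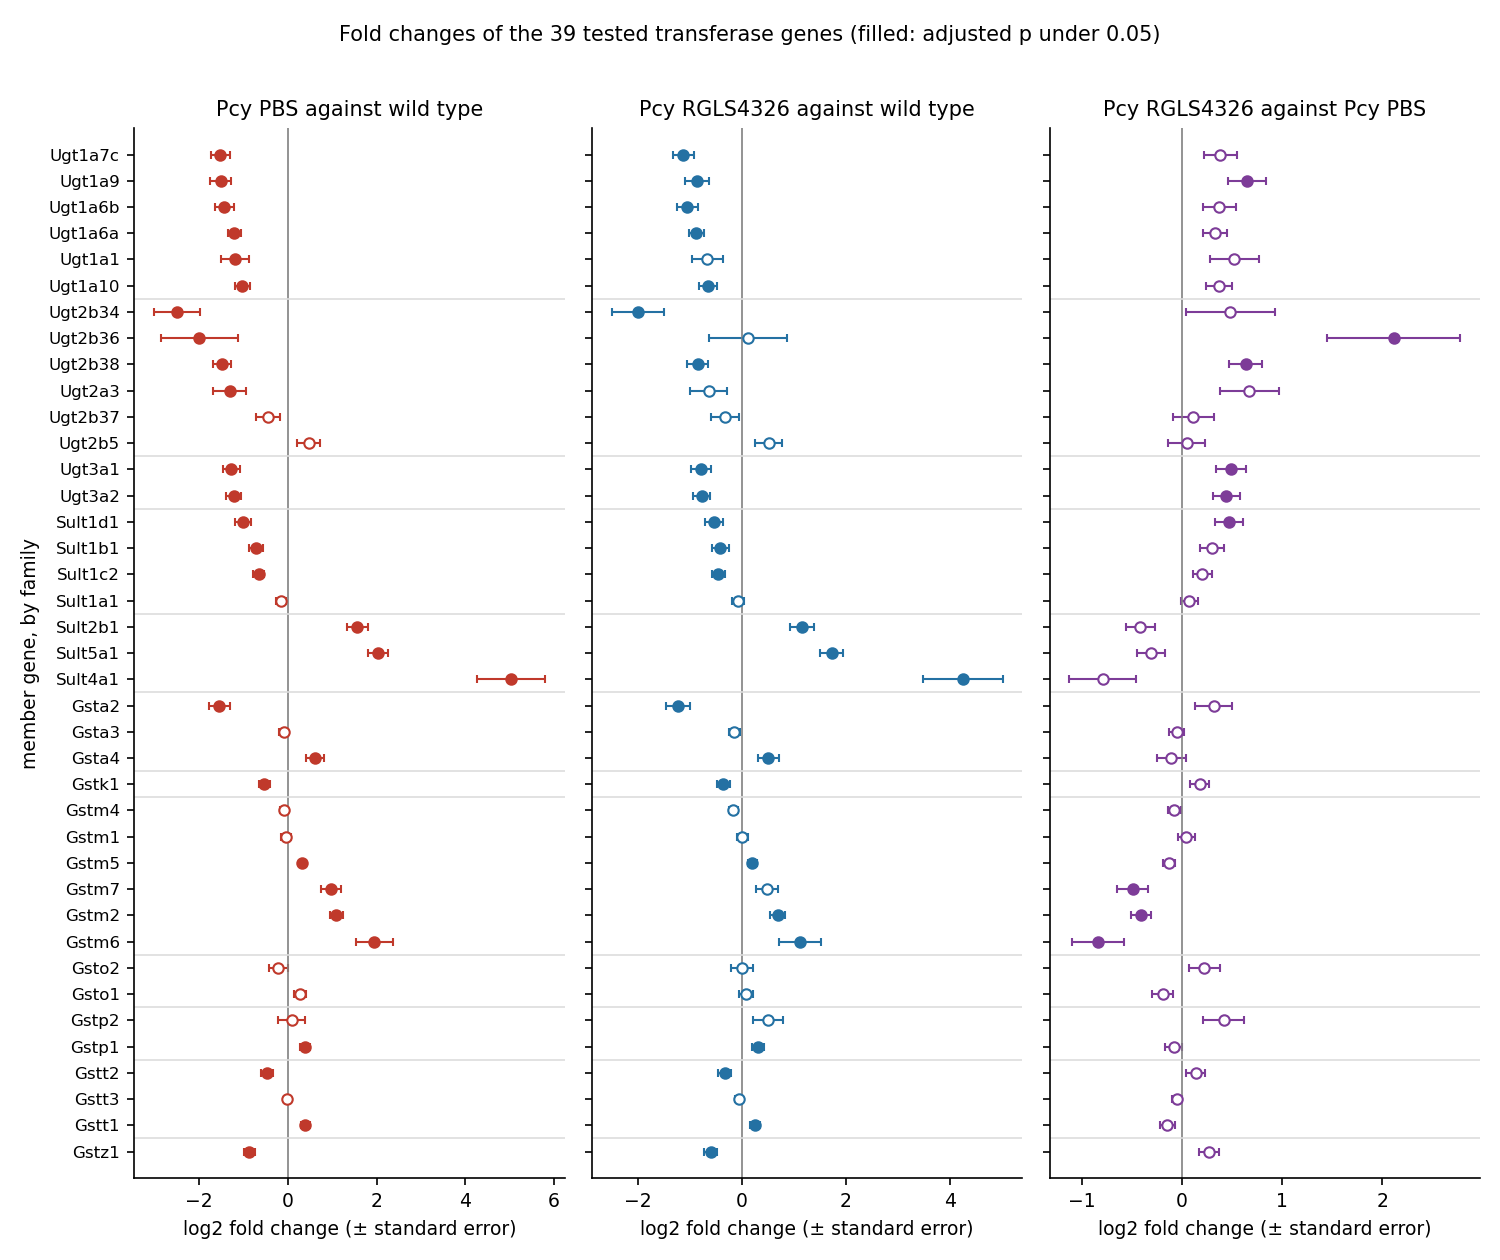
Log2 fold changes (horizontal axes, with standard errors) of the 39 tested members, grouped by family, for Pcy PBS against wild type, Pcy RGLS4326 against wild type and Pcy RGLS4326 against Pcy PBS; filled points had an adjusted p under 0.05. Ugt1 and Ugt3 members lie left of 0 in both comparisons with wild type, whereas Sult2b1, Sult4a1, Sult5a1, Gstm2 and Gstm6 lie right of 0.

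All 6 Ugt1 members fell in Pcy PBS mice, with log2 fold changes from −1.52 to −1.03. They share a locus on chromosome 1 of GRCm38 (chr1:88055388-88220002, plus strand), where each gene has its own first exon and the last exons are common. Between 50.3% and 60.6% of the exon sequence of each member is shared in this way, so reads counted for a single member had to fall on the rest of its exons. Ugt1a10 had the highest level per kb among them and read 104, 112, 119, 118 and 119 CPM in wild-type mice, 35.2 to 83.1 CPM with a median of 57.2 in Pcy PBS mice, and 51.3 to 111 CPM with a median of 72.0 in Pcy RGLS4326 mice. All PBS mice lay below wild type, and 1 treated mouse lay inside the wild-type range. Ugt1a10 fell by 1.03 on the log2 scale in Pcy PBS mice (SE 0.17, adjusted p = 4.55e-06).

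Ugt1a7c and Ugt1a9 showed the largest falls of the locus. Ugt1a7c read 116, 128, 146, 142 and 130 CPM in wild-type mice and 22.2 to 65.0 CPM with a median of 46.8 in Pcy PBS mice, without overlap (log2 fold change −1.52, SE 0.21, adjusted p = 2.20e-07). In Pcy RGLS4326 mice it read 38.4 to 128 CPM with a median of 51.8, and the highest value was that of mouse 9. Ugt1a9 read 22.9, 24.3, 27.5, 27.4 and 27.3 CPM in wild type, 4.27 to 16.1 CPM with a median of 9.22 with PBS and 8.15 to 21.2 CPM with a median of 14.9 with RGLS4326. Every Pcy mouse of either group lay below every wild-type mouse for Ugt1a9 (log2 fold change −1.51, SE 0.23, adjusted p = 1.39e-06 with PBS). The bilirubin-conjugating enzyme Ugt1a1 was scarce, at 1.23 ± 0.168 CPM in wild type (SD, n = 5), and also fell (log2 fold change −1.19, adjusted p = 0.00108). An antisense transcript, Gm20528, overlaps 9.14% to 41.5% of the exons of these genes, and the strand setting of the counting is not given in the sources used here.

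The Ugt3 genes, which transfer sugars other than glucuronate, fell together. Ugt3a2 and Ugt3a1 are neighbours on chromosome 15 of GRCm38 (chr15:9276888-9370955). Ugt3a2 read 2427, 2204, 1974, 2068 and 2245 CPM in wild-type mice, 587 to 1306 CPM with a median of 943 with PBS, and 856 to 1814 CPM with a median of 1190 with RGLS4326. Neither Pcy group overlapped wild type. Ugt3a2 was 2.33-fold lower with PBS than in wild type (log2 fold change −1.22, SE 0.17, adjusted p = 3.76e-07). Ugt3a1 read 332, 310, 274, 286 and 359 CPM in wild-type mice and 76.7 to 192 CPM with a median of 140 with PBS, again without overlap (log2 fold change −1.28, SE 0.19, adjusted p = 8.89e-07).

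The Ugt2 genes, whose products conjugate steroids and fatty acids among other substrates, were the least uniform of the Ugt families, with 4 of 6 lower and 2 not called. They form a cluster on chromosome 5 of GRCm38 together with Sult1b1 and Sult1d1 (chr5:86889767-87569027). Ugt2b38, the most abundant, read 1314, 1492, 1446, 1491 and 1276 CPM in wild-type mice, 263 to 788 CPM with a median of 505 with PBS, and 498 to 1148 CPM with a median of 714 with RGLS4326. The groups were ordered with wild type above every Pcy mouse, and the Pcy groups overlapped. Ugt2b38 was 2.81-fold lower with PBS than in wild type (log2 fold change −1.49, SE 0.21, adjusted p = 2.61e-07).

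Ugt2b34 showed the largest fall of all members. It read 5.66, 8.61, 5.44, 5.27 and 4.40 CPM in wild-type mice, 0.141 to 1.74 CPM with a median of 0.952 with PBS, and 0.384 to 10.1 CPM with a median of 0.668 with RGLS4326. The value of 10.1 CPM belonged to mouse 9 and lay above the wild-type range, and all other Pcy mice lay below it. The log2 fold change was −2.49 with PBS (SE 0.52, adjusted p = 9.58e-05) and −2.01 with RGLS4326 (SE 0.50, adjusted p = 0.000919), both against wild type. Without mouse 9 the treated mice read 0.793 ± 0.392 CPM (SD, n = 13), and the second value was −2.87 (SE 0.29, adjusted p = 1.81e-09). Ugt2a3 also fell (log2 fold change −1.31, adjusted p = 0.00233) at 1.66 ± 0.815 CPM in wild type (SD, n = 5). Ugt2b genes are close in sequence, and reads that map to more than 1 of them were not counted.

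Ugt2b5 and Ugt2b37, between Ugt2b36 and Ugt2a3 in the same cluster, were not called in any comparison over all mice. Ugt2b37 read 51.3, 35.5, 30.4, 29.9 and 148 CPM in wild-type mice and 27.6 to 79.8 CPM with PBS (log2 fold change −0.44, SE 0.27, adjusted p = 0.138), and without wild-type mouse 5 the sign turned (0.24, SE 0.22, adjusted p = 0.331). Ugt2b5 read 2.06, 1.78, 1.95, 2.0 and 5.36 CPM in wild-type mice and 2.25 to 5.92 CPM with PBS (log2 fold change 0.47, SE 0.26, adjusted p = 0.110), and without wild-type mouse 5 it was called higher (0.90, SE 0.26, adjusted p = 0.00321). In both genes wild-type mouse 5 was far above the other 4, and the groups overlapped.

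Ugt2b36 was measured at very low levels. It read 0.295, 0.119, 0.532, 0.363 and 1.69 CPM in wild-type mice, 0 to 0.355 CPM with a median of 0.139 with PBS, and 0.0401 to 4.65 CPM with a median of 0.237 with RGLS4326. Wild-type mouse 5, with 28 counts, and RGLS4326-treated mouse 9, with 91 counts, stood above the rest of their groups, and all groups overlapped. Ugt2b36 was called lower in PBS mice than in wild type (log2 fold change −1.99, SE 0.87, adjusted p = 0.0395), but not when any of wild-type mice 3 or 5 or PBS mice 3, 5, 8, 9 or 12 was left out, with values from −2.03 to −1.13, the last without wild-type mouse 5. Albumin (Alb), the main secreted protein of hepatocytes, read 178 CPM in wild-type mouse 5 against 17.2 to 45.0 CPM in the other wild-type mice, and 330 CPM in treated mouse 9 against 6.05 to 86.3 CPM in the other treated mice. Among wild-type mice Ahsg, Apoa2, Apoc3, Hpx, Serpina1a and Serpina1b were also highest in mouse 5, with Ahsg at 20.4 CPM there. Ttr and Apoh were not, and Ttr read 161 and 162 CPM in wild-type mice 3 and 4 and 17.5 CPM in mouse 5. Of 9 hepatocyte markers, 6 fell in Pcy PBS mice and 3 rose with RGLS4326 against PBS, and 1 of them, Ahsg, was at 0 in 1 mouse. Their sum ranged from 88.1 to 328 CPM in wild type, from 35.3 to 121 CPM with PBS and from 37.0 to 556 CPM with RGLS4326.

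The levels of Ugt2b36 and Alb were set side by side over the mice of each Pcy group as a description. No p-value is given, since the pair was chosen after its values were seen. Pearson's r was 0.932 and Spearman's rho 0.916 over the 12 PBS mice, in which Ugt2b36 had 0 to 8 counts. Over the 14 RGLS4326 mice r was 0.994 and rho 0.881. Without the 2 mice farthest from the median of Alb, mice 4 and 6 with PBS and mice 1 and 9 with RGLS4326, r was 0.896 and 0.830. Among symbols below the count rule, Ugt2b1 had 70 counts in treated mouse 9 and 21 in wild-type mouse 5 and at most 11 elsewhere, and Ugt2b35 and Gstm3 each had 30 counts in treated mouse 9 and at most 6 in any other mouse. The part of liver-type RNA in these values was not tested.

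**Figure D3:**
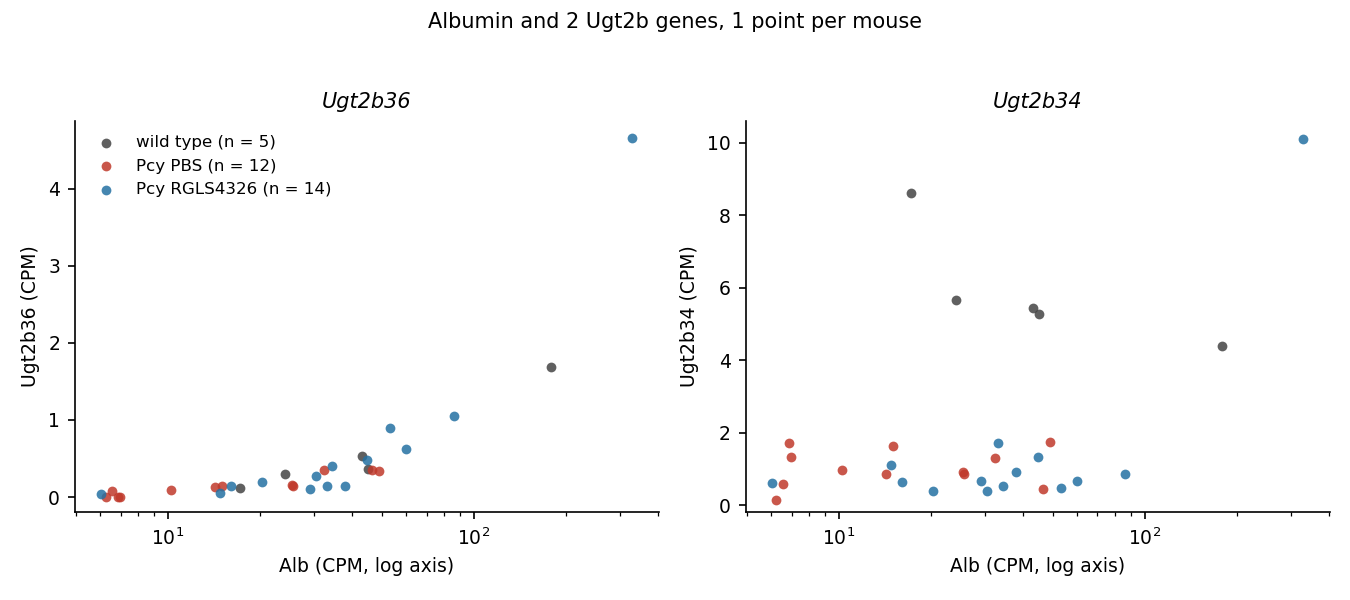
Ugt2b36 (left) and Ugt2b34 (right) in CPM against Alb in CPM on a log axis, 1 point per mouse, coloured by group. RGLS4326-treated mouse 9 (Alb 330 CPM) and wild-type mouse 5 (Alb 178 CPM) have the highest Ugt2b36 values, 4.65 and 1.69 CPM, whereas Ugt2b34 is high in all wild-type mice.

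Most tested Sult1 members fell, and the tested members of the other Sult families rose. Sult1b1, Sult1c2 and Sult1d1 of the Sult1 family, whose members act on phenols, catechols and thyroid hormones, fell in Pcy PBS mice, and Sult1a1 was not called (log2 fold change −0.15, SE 0.11, adjusted p = 0.235). Sult1d1 read 461, 500, 432, 466 and 436 CPM in wild-type mice, 122 to 374 CPM with a median of 245 with PBS, and 217 to 415 CPM with a median of 302 with RGLS4326. No Pcy mouse reached the lowest wild-type value. Sult1d1 was 2.01-fold lower with PBS than in wild type (log2 fold change −1.0, SE 0.18, adjusted p = 1.22e-05).

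The 3 tested members of the Sult2 and higher families rose in Pcy PBS mice, from levels near the detection limit. Sult2a3, at 0.536 CPM in wild type and 0.188 CPM with PBS on average, had a log2 fold change of −1.47 when no filter on low counts was applied. It had 10 counts in 3 of 5 wild-type mice, 0 of 12 with PBS and 3 of 14 with RGLS4326. It thus met the count rule only through groups other than PBS, and its fall is a description. Sult4a1, an orphan sulfotransferase best known from brain, read 0, 0.119, 0.296, 0.182 and 0.181 CPM in wild-type mice, where it had at most 5 counts per library, and 2.01 to 9.58 CPM with a median of 3.78 with PBS. With RGLS4326 it read 0.102 to 6.44 CPM with a median of 2.60, and mouse 9 gave the lowest value. All PBS mice lay above wild type (log2 fold change 5.04, SE 0.76). Sult4a1 passed the filter on low counts only through Pcy mice, with 10 counts in 0 of 5 wild-type mice, 12 of 12 with PBS and 13 of 14 with RGLS4326, so its rise is a description, and without it 9 members rose. Sult5a1 read 1.36, 1.13, 1.24, 0.606 and 1.81 CPM in wild-type mice and 3.85 to 6.49 CPM with a median of 5.04 with PBS (log2 fold change 2.03, SE 0.23, adjusted p = 1.57e-08). Sult2b1, which sulfates cholesterol and other sterols, read 1.06, 1.60, 0.532, 0.606 and 1.39 CPM in wild-type mice and 2.32 to 4.71 CPM with a median of 2.91 with PBS (log2 fold change 1.57, SE 0.23, adjusted p = 7.78e-07). Neither gene overlapped between these groups.

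Among the glutathione transferases, 7 of 18 rose (38.9%), near the 37.7% of all genes tested, 4 fell (22.2%, against 36.6% of all genes) and 7 were not called in Pcy PBS mice. The mu-class genes lie within a cluster on chromosome 3 of GRCm38 (chr3:107895821-108044894), and the 4 members at its lower coordinates, in the order Gstm5, Gstm7, Gstm6 and Gstm2, all rose, whereas Gstm1 and Gstm4 at its other end were not called. Gstm2 read 30.8, 41.3, 33.1, 31.4 and 48.5 CPM in wild-type mice, 57.0 to 112 CPM with a median of 78.0 with PBS, and 41.7 to 78.8 CPM with a median of 60.9 with RGLS4326. PBS mice all lay above wild type, and 2 treated mice lay inside the wild-type range. Gstm2 was 2.13-fold higher with PBS (log2 fold change 1.09, SE 0.15, adjusted p = 1.60e-07).

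Gstm6 read 1.0, 0.594, 0.828, 0.727 and 0.963 CPM in wild-type mice and 1.07 to 5.37 CPM with a median of 2.60 with PBS (log2 fold change 1.95, SE 0.41, adjusted p = 0.000105). Gstm7 read 9.02, 6.83, 6.74, 7.08 and 7.11 CPM in wild-type mice and 8.65 to 24.6 CPM with a median of 11.3 with PBS (log2 fold change 0.97, SE 0.22, adjusted p = 0.000258). Gstm6 did not overlap between these groups, and 2 PBS mice lay in the wild-type range of Gstm7. Gstm1, the most abundant glutathione transferase per kb, read 372, 400, 336, 311 and 342 CPM in wild-type mice, 283 to 472 CPM with a median of 328 with PBS and 276 to 425 CPM with a median of 348 with RGLS4326. The groups overlapped throughout, and the log2 fold change with PBS was −0.04 (SE 0.11, adjusted p = 0.754). Mu-class genes are close paralogs, so reads common to them were not counted.

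**Figure D4:**
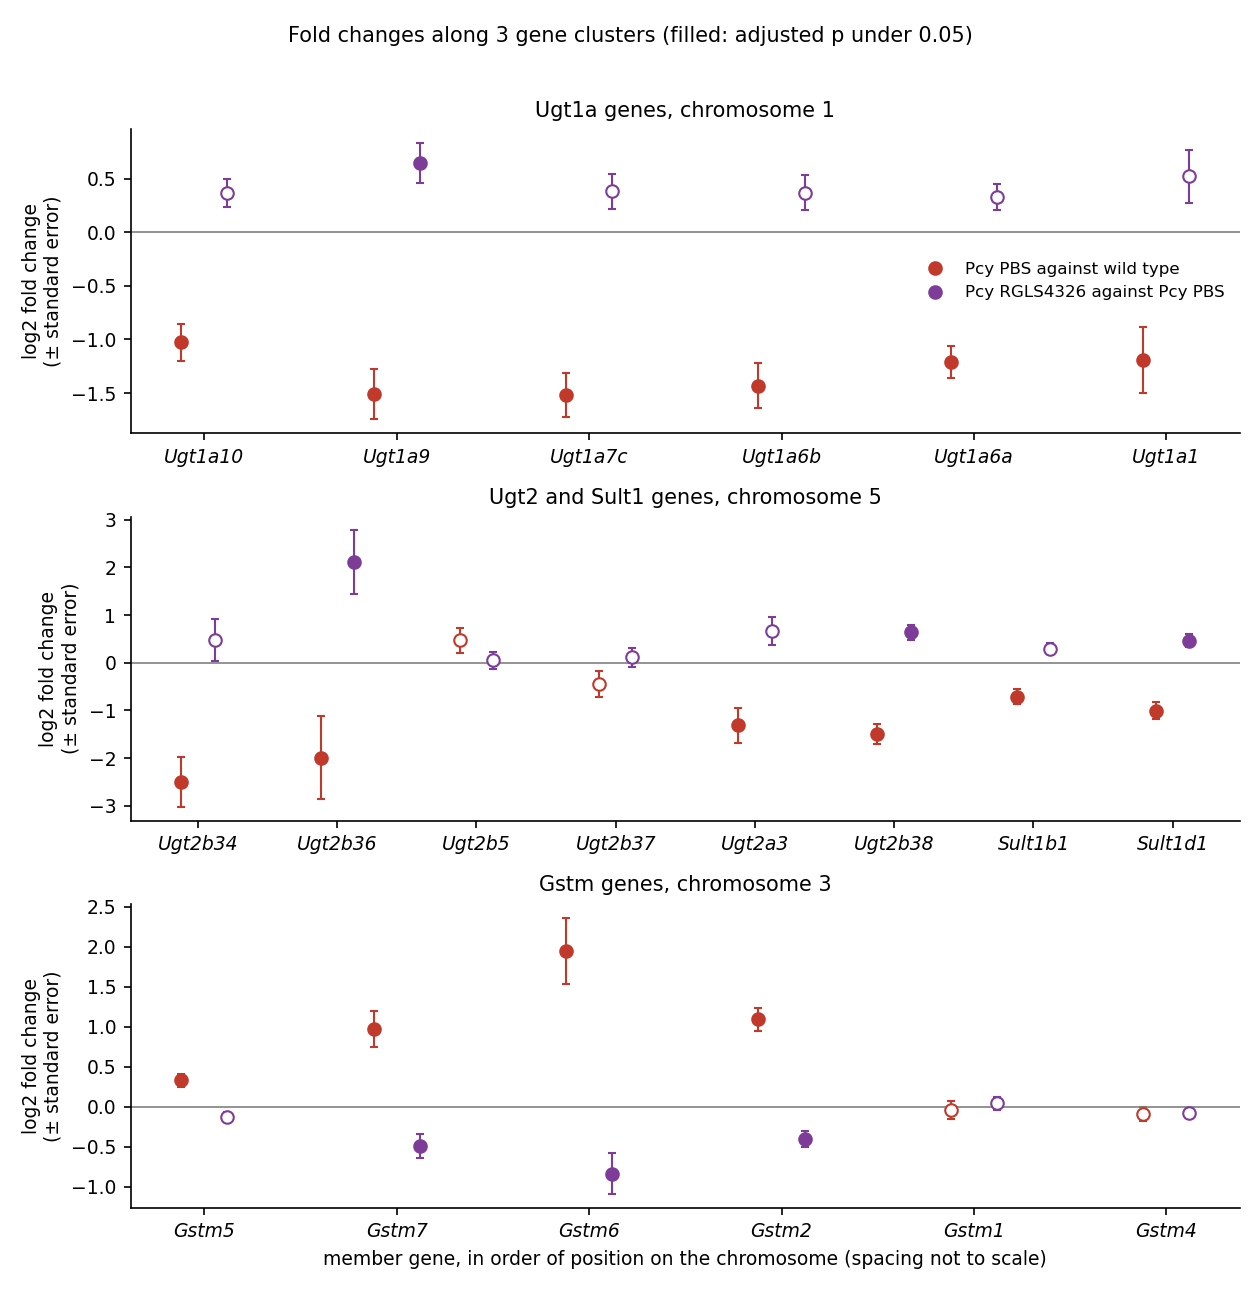
Log2 fold changes (vertical axes, with standard errors) of members in their order along clusters on chromosomes 1, 5 and 3, for Pcy PBS against wild type (red) and Pcy RGLS4326 against Pcy PBS (purple); filled points had an adjusted p under 0.05, and spacing is not to scale. All 6 Ugt1a genes fell in Pcy PBS mice, whereas in the Gstm cluster the first 4 genes rose and Gstm1 and Gstm4 were not called.

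The alpha class was split. Gsta2 read 17.5, 21.7, 15.6, 15.1 and 12.3 CPM in wild-type mice, 3.02 to 8.23 CPM with a median of 5.98 with PBS, and 4.39 to 18.1 CPM with a median of 5.75 with RGLS4326. PBS mice lay below wild type without overlap (log2 fold change −1.54, SE 0.23, adjusted p = 1.09e-06), and mouse 9 was the only treated mouse in the wild-type range. Gsta4, which conjugates the lipid peroxidation product 4-hydroxynonenal, read 14.6, 16.5, 17.5, 15 and 16 CPM in wild-type mice and 13 to 39.9 CPM with a median of 20.9 with PBS, and rose (log2 fold change 0.61, SE 0.20, adjusted p = 0.00789), with PBS mice on both sides of the narrow wild-type range. Gsta3 was not called (log2 fold change −0.09, SE 0.10, adjusted p = 0.411).

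Of the remaining classes, Gstz1, which catalyses a step of tyrosine breakdown, read 546, 477, 474, 449 and 488 CPM in wild-type mice and 194 to 344 CPM with a median of 251 with PBS, without overlap (log2 fold change −0.87, SE 0.13, adjusted p = 7.28e-07). The mitochondrial and peroxisomal enzyme Gstk1 read 72.8, 62.8, 65.9, 62.7 and 63.8 CPM in wild-type mice and 30.9 to 61.7 CPM with a median of 42.6 with PBS, again without overlap (log2 fold change −0.54, SE 0.12, adjusted p = 0.000289). Gstp1, a pi-class enzyme, read 75.8, 82.1, 98.7, 93.4 and 147 CPM in wild-type mice and 111 to 142 CPM with a median of 131 with PBS. It rose (log2 fold change 0.38, SE 0.12, adjusted p = 0.00487), although every PBS mouse lay within the wild-type range. In the theta class Gstt1 read 140, 79.4, 113, 116 and 108 CPM in wild-type mice and 106 to 171 CPM with a median of 151 with PBS (log2 fold change 0.39, SE 0.10, adjusted p = 0.00103), and Gstt2 fell (log2 fold change −0.47, SE 0.13, adjusted p = 0.00136). Gsto1 read 20.1, 23.5, 23.9, 22 and 20.6 CPM in wild-type mice and 17.3 to 38.4 CPM with a median of 25.8 with PBS, and neither it nor Gsto2 was called (log2 fold changes 0.27 and −0.22, adjusted p = 0.0848 and 0.365).

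Next, Pcy RGLS4326 mice were compared with Pcy PBS mice to find which transferases respond to treatment. Of 39 members, 6 rose and 3 fell, or 15.4% and 7.69% (5 rises without Ugt2b36, which passed the filter on low counts mainly through the treated mice, with 10 counts in 5 of 14, against 0 of 12 with PBS and 1 of 5 in wild type), where 9.15% of all genes tested rose and 6.66% fell. Of all genes called, 57.9% were higher, and with upper quartile scaling 42.2%, where 6 members rose and 4 fell. With an added threshold of 0.5 on the absolute log2 fold change, 3 members rose and 1 fell, where 0.935% of all genes rose and 1.22% fell. The median log2 fold change was 0.18 over the members and −0.0043 over all genes. The groups overlapped for every member in this comparison, as they did for all 15185 genes (0% without overlap). The members that rose were Ugt1a9, Ugt2b36, Ugt2b38, Ugt3a1, Ugt3a2 and Sult1d1, and those that fell were Gstm2, Gstm6 and Gstm7.

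Ugt2b38 rose 1.55-fold, from 500 ± 178 CPM with PBS (SD, n = 12) to 776 ± 208 CPM with RGLS4326 (SD, n = 14), with a log2 fold change of 0.63 (SE 0.16, adjusted p = 0.0170). Gstm2 decreased from 78.8 ± 14.8 CPM (SD, n = 12) to 59.4 ± 10.7 CPM (SD, n = 14), with a log2 fold change of −0.41 (SE 0.10, adjusted p = 0.0143). Both passed the threshold whichever mouse was left out, with values from 0.57 to 0.71 for Ugt2b38 and from −0.44 to −0.35 for Gstm2. The other 7 members called did not keep their call in this way.

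Ugt1a9 rose from 9.11 ± 3.87 CPM (SD, n = 12) to 14.3 ± 4.09 CPM (SD, n = 14), with a log2 fold change of 0.65 (SE 0.19, adjusted p = 0.0260), and lost its call without PBS mouse 5, 9 or 10 (values near 0.59). Ugt3a2 rose from 936 ± 279 to 1271 ± 281 CPM, with a log2 fold change of 0.44 (SE 0.13, adjusted p = 0.0316). Ugt3a1 read 111 to 270 CPM with a median of 166 in treated mice, and its log2 fold change was 0.49 (SE 0.15, adjusted p = 0.0330). Sult1d1 rose from 229 ± 75.4 to 316 ± 64.4 CPM, with a log2 fold change of 0.47 (SE 0.14, adjusted p = 0.0297). The treated and PBS mice overlapped for each of these genes.

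Gstm6 read 0.552 to 2.77 CPM with a median of 1.77 in treated mice and fell by 0.84 on the log2 scale (SE 0.26, adjusted p = 0.0316). Gstm7 read 7.80 to 14.4 CPM with a median of 10.4 in treated mice and fell by 0.49 (SE 0.15, adjusted p = 0.0330). Ugt2b36 had a log2 fold change of 2.11 (SE 0.67, adjusted p = 0.0355), and with treated mouse 1, 9, 10 or 13 left out it no longer passed the filter on low counts. Its call was also lost without PBS mouse 2, 3, 5, 9 or 10, with values from 1.99 to 2.13. The medians of Ugt2b36 were 0.139 CPM with PBS and 0.237 CPM with RGLS4326.

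**Figure D5:**
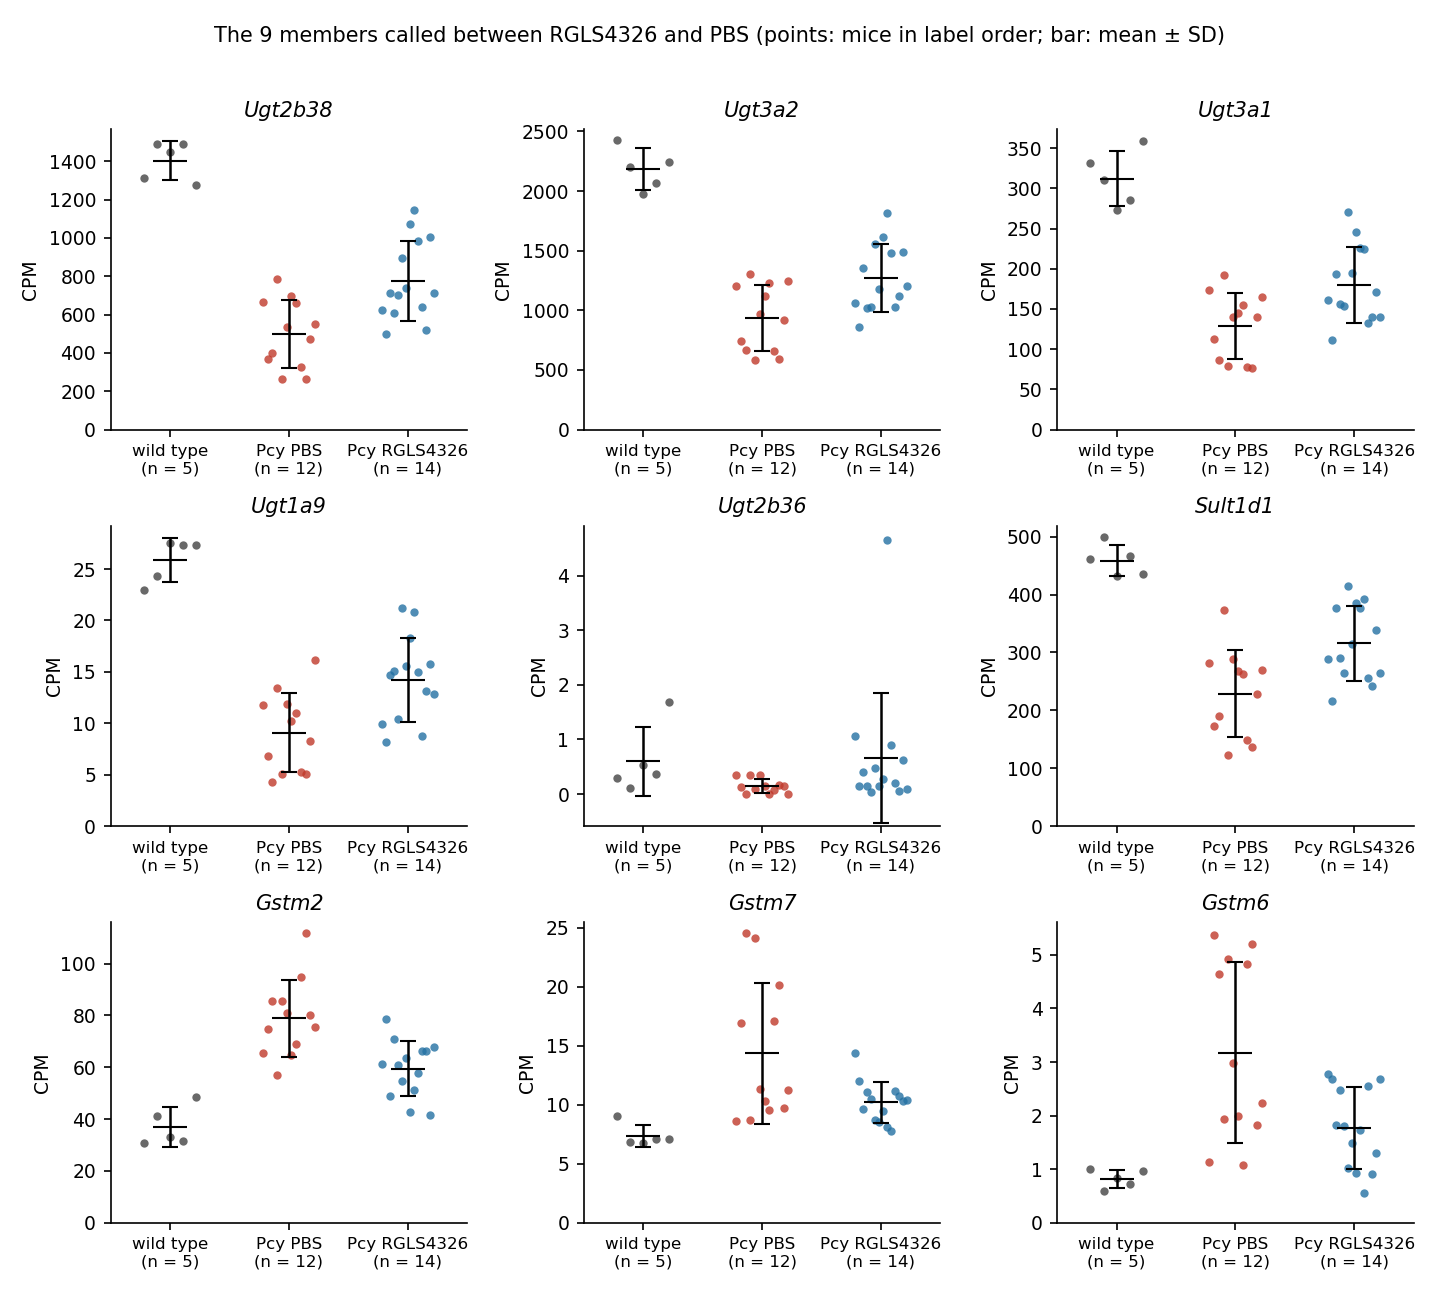
CPM (vertical axes) of the 9 members called between Pcy RGLS4326 and Pcy PBS mice, in each mouse by group; bars show the mean and SD. Treated mice overlap PBS mice in every panel, and the Ugt2b36 panel is led by a single treated mouse at 4.65 CPM.

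The count of 9 treatment calls depended on single mice. It was 2 without PBS mouse 5, 9 or 10, 3 without PBS mouse 2 or 3 or treated mouse 10, 4 without treated mouse 6 or 8, and 5 without treated mouse 9, where Gstm7, Ugt3a1 and Ugt3a2 were not called (log2 fold changes −0.47, 0.46 and 0.39, adjusted p = 0.0530, 0.0541 and 0.0561) and Ugt2b36 was not tested. It was 16 without PBS mouse 4 and 15 without treated mouse 2. Libraries carry numbers that form 3 series within the deposited names, which were treated as batches with 4 PBS mice and 4 or 5 treated mice each. Fitted within a series, edgeR called none of the members and none of all genes, and an unadjusted p under 0.05 was reached by 0, 13 and 14 of 38 members in series 1, 2 and 3. The 8 called members that could be fitted in the series kept their sign in each, with rises from 0.13 to 0.40 in series 1, 0.56 to 0.85 in series 2 and 0.50 to 0.94 in series 3 on the log2 scale.

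Other members were not called in the treatment comparison, 4 of them at an adjusted p just above the threshold. Gstz1 read 229 to 450 CPM with a median of 309 in treated mice, and its log2 fold change was 0.27 (SE 0.10, adjusted p = 0.0566). Values for Ugt1a10 and Ugt1a6a were 0.37 and 0.33 (adjusted p = 0.0533 and 0.0534), and for Sult2b1 −0.41 (SE 0.15, adjusted p = 0.0523). DESeq2 called these 4 members as well. Sult4a1 and Sult5a1 had log2 fold changes of −0.79 and −0.31 (adjusted p = 0.0895 and 0.105), and Gsta2 of 0.32 (adjusted p = 0.214), or 0.13 without treated mouse 9 (adjusted p = 0.538). Gstm1 read 353 ± 48.4 CPM in treated mice (SD, n = 14), with a log2 fold change of 0.04 (SE 0.08).

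The treated mice were also compared with wild type, a comparison that shares mice with both others. Of 39 members, 16 were lower and 9 higher in Pcy RGLS4326 mice than in wild type, or 41.0% and 23.1%, where 32.4% of all genes were lower and 32.5% higher. Upper quartile scaling moved the share of higher genes among all genes called from 50.1% to 62.5%. In 6 members, or 15.4%, no treated mouse overlapped the wild-type range, against 14.8% of all genes. These 6 were Sult1d1, Ugt1a6a, Ugt1a9, Ugt2b38, Ugt3a1 and Ugt3a2. Without treated mouse 9, which was chosen after the data were seen, 13 members, or 33.3%, did not overlap, against 33.4% of all genes. The 7 added were Gsta2, Gstz1, Sult4a1, Sult5a1, Ugt1a6b, Ugt1a7c and Ugt2b34. Of these, Sult4a1 passed the filter on low counts only through Pcy mice. For Ugt3a2 the log2 fold change against wild type was −1.22 with PBS and −0.78 with RGLS4326 (SE 0.17, adjusted p = 0.000250), for Ugt2b38 −1.49 and −0.86 (SE 0.20, adjusted p = 0.000609), and for Ugt1a9 −1.51 and −0.86 (SE 0.23, adjusted p = 0.00166).

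Among the members that were higher, Gstm2 had log2 fold changes against wild type of 1.09 with PBS and 0.68 with RGLS4326 (SE 0.14, adjusted p = 0.000131 with RGLS4326). Sult4a1, which passed the filter on low counts only through Pcy mice, had values of 5.04 and 4.25, given as a description, and without it 8 members were higher. Ugt1a1, Ugt2a3, Ugt2b36 and Gstm7 were called with PBS and not with RGLS4326 (log2 fold changes −0.67, −0.64, 0.12 and 0.48, adjusted p = 0.0508, 0.117, 0.899 and 0.0514). Without treated mouse 9, 29 of 38 members tested were called (10 higher, 19 lower). The share of all genes called in that fit is not given here, so this count is not read as a result about the members. The 29 included Ugt1a1 (−0.85, adjusted p = 0.00557), Ugt2a3 (−0.88, adjusted p = 0.0130), Gstm7 (0.50, adjusted p = 0.0413) and Gsta3 (−0.20, adjusted p = 0.0285), and Ugt2b36 was not tested. The calls of Gsta4, Gstp1 and Gstt1 in treated mice were lost without some wild-type mice, namely 1 or 4 for Gsta4 (lowest value 0.48), 1, 2 or 4 for Gstp1 (0.22) and 2 or 5 for Gstt1 (0.15). Within library series 1, 25 members were called against wild type, 22 of them among the 25 called over all mice, where 51.7% of all genes were called. Within series 2 edgeR called 0 members, with 15 of 39 at an unadjusted p under 0.05, and 0.411% of all genes. The sign of all 25 members called over all mice was kept in both series. For PBS against wild type, 20 and 23 of the calls were made within series 1 and 2 as well, where 42.4% and 45.7% of all genes were called, and the sign of all 28 fitted calls was kept in both. Series 3 held 1 wild-type mouse and gave no such comparison.

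RGLS4326 binds miR-17, whose mature sequence from RefSeq is shown to place the seed (bases 2 to 8, in capitals) beside its match in the transferases. The miRNA lies at chr14:115043684-115043706 of GRCm38.p6 (plus strand).
mmu-miR-17-5p: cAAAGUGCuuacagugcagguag
Sult1a1, 3′UTR site: cagagtgaGCACTTTgatgcccac
The longest annotated 3′UTR of each of the 40 members was searched for the 7 bases that pair with the seed, and Sult1a1 alone held them, starting at base 200 of 539. Sult1a1 read 10.7 ± 1.43 CPM with PBS (SD, n = 12) and 11.2 ± 2.13 CPM with RGLS4326 (SD, n = 14) and was not called (log2 fold change 0.07, SE 0.08, adjusted p = 0.539). None of the 9 members called between treated and PBS mice held a match. Only this 7-base match was searched and its share over the 3′UTRs of all genes is not given here, so these counts are descriptions.

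Promoters, from 250 bases before to 50 bases after each start that RefSeq lists for a gene, were available from RefSeq for 35 members. A single arm of the palindromic binding site of HNF1, a family of transcription factors of kidney tubule and liver, was searched as GTTAATNAT on both strands. It was present in 5 member promoters (14.3%) and in 0.9% of the promoters of 16630 genes. Members of the same locus are among the 5, such as Ugt1a1 and Ugt1a9, so these promoters are not separate cases. The matches of 4 genes, in capitals and written on the strand that reads as the motif, are shown to give the letters around the motif.
Ugt1a1, chr1:88211915-88211923: gtgcaaccaGTTAATGATtgattgtgc
Ugt1a9, chr1:88070685-88070693: taaattcagGTTAATGATttacttaaa
Sult1d1, chr5:87569077-87569085: cactgatcaGTTAATAATtgactaaga
Sult2a3, chr7:14123091-14123099: caagataatGTTAATGATtttttactt
Coordinates are those of the motif in GRCm38.p6. A match is a description of letters and not of binding.

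The core of the antioxidant response element, through which NRF2 acts, was searched as TGACNNNGC. It occurred in 3 member promoters (8.6%) and in 15% of all promoters, and the match in Gstm7, chr3:107931735-107931743 of GRCm38.p6, is shown because this gene was called in both comparisons with PBS mice. It lies before the second of the RefSeq starts and inside the span given for the gene by GENCODE.
Gstm7: ctgaagaccTGACAAAGCgaagccaat
Gsta3 and Gstm5 held the others. The core motif of the aryl hydrocarbon receptor, searched as TNGCGTG, occurred in Gsta2 and Sult1d1 (5.7%) and in 7.1% of all promoters.

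Genes that supply the cosubstrates were examined as a list of 18. In Pcy PBS mice 16 of them fell (88.9%, against 36.6% of all genes tested) and 1 rose, with a median log2 fold change of −0.76. Ugdh, which makes UDP-glucuronate, fell (log2 fold change −0.56, adjusted p = 1.90e-08), as did Gclm, the modifier subunit of the first enzyme of glutathione synthesis (−0.82, adjusted p = 2.38e-08), and Ggt1, which begins glutathione breakdown at the brush border (−1.04, adjusted p = 3.06e-08). With RGLS4326 6 rose (33.3%, against 9.15% of all genes) and 0 fell against PBS, with a median of 0.26, among them Ugdh (0.22, adjusted p = 0.00991), Gclm (0.29, adjusted p = 0.0157) and Gclc, the catalytic subunit (0.34, adjusted p = 0.0223).

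Other conjugating enzymes, such as methyl-, acetyl- and glycine transferases, moved in both directions against wild type, with 10 of 15 tested lower (66.7%) and 2 higher (13.3%) in Pcy PBS mice, where 36.6% and 37.7% of all genes were. Nnmt, which methylates nicotinamide, rose (log2 fold change 3.41, adjusted p = 4.04e-09), and Gnmt, a glycine methyltransferase, fell (−2.08, adjusted p = 6.58e-08). With RGLS4326 against PBS 5 rose (33.3%, against 9.15% of all genes) and 0 fell (against 6.66% of all genes). Glyat, which conjugates glycine, was among the rises (0.34, adjusted p = 0.0279). Of 10 microsomal and other glutathione transferases and related proteins not covered by the symbol rule, 6 rose (60%) and 1 fell (10%) in Pcy PBS mice, led by the microsomal enzyme Mgst3 (0.98, adjusted p = 1.60e-07) and by Hpgds, the prostaglandin D synthase of immune cells (2.08, adjusted p = 5.41e-07). By edgeR 0 of these 10 were called between RGLS4326 and PBS, where 3 had an unadjusted p under 0.05, DESeq2 called 0 and the smallest adjusted p was 0.0646, for Clic1. Of 5 deconjugating enzymes, 4 fell (80%) and 1 rose (20%) in Pcy PBS mice, with Gusb, the lysosomal β-glucuronidase, at −1.12 (adjusted p = 3.94e-10). Against PBS, 3 of these enzymes rose (60%) and 1 fell (20%) with RGLS4326, where 9.15% of all genes rose and 6.66% fell.

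Targets of NRF2 other than transferases were called in both directions, with 7 of 20 higher (35%, near the 37.7% of all genes) and 10 lower (50%, against 36.6%) in Pcy PBS mice. With RGLS4326 against PBS 6 were higher (30%, against 9.15% of all genes) and 2 lower (10%, against 6.66%). Me1 fell (log2 fold change −1.28, adjusted p = 6.21e-09) and Prdx1 fell (−0.60, adjusted p = 8.78e-09) in Pcy PBS mice, and Nqo1 rose with RGLS4326 (0.25, adjusted p = 0.0200). Of 18 regulators of conjugation genes, 11 fell (61.1%) and 2 rose (11.1%) in Pcy PBS mice, with Nr1h4, the bile acid receptor, at −1.48 (adjusted p = 3.66e-08) and Ppara at −1.50 (adjusted p = 4.69e-08). With RGLS4326 4 rose and 1 fell, with Nr1h4 at 0.63 (adjusted p = 0.0101) and Hnf4a at 0.35 (adjusted p = 0.0213). Of 9 conjugate efflux transporters, 5 fell (55.6%) and 4 rose (44.4%) in Pcy PBS mice, with Abcc2, the apical transporter of glucuronides and glutathione conjugates, at −1.29 (adjusted p = 3.09e-08) and Abcc3, a basolateral transporter, at 2.12 (adjusted p = 1.04e-07). Against PBS, 1 rose and 3 fell with RGLS4326.

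Cell type markers moved alongside these changes. All 17 proximal tubule markers fell in Pcy PBS mice (median log2 fold change −1.21) and 8 rose with RGLS4326 against PBS (median 0.38). Their summed level was 77643 to 94149 CPM in wild type, 27655 to 55855 CPM with PBS and 39650 to 74094 CPM with RGLS4326. Set against this sum, the Ugt members read 50.6 ± 3.15 CPM per 1000 CPM of proximal tubule markers in wild type (SD, n = 5), 41.3 ± 3.25 with PBS (SD, n = 12) and 45.3 ± 3.26 with RGLS4326 (SD, n = 14). Kap alone made up 48.2% of this sum in wild type, 54.1% with PBS and 53.9% with RGLS4326 on average, and over the other 16 markers the Ugt members read 97.8 ± 4.65, 90.2 ± 6.85 and 98.5 ± 7.24 in the same order, a choice made after the data were seen. Over all 17 markers the Sult members read 9.21 ± 1.25, 10.8 ± 0.740 and 10.4 ± 0.878, and the Gst members 20.8 ± 0.994, 40.3 ± 11.6 and 30.5 ± 4.69. Sult1d1 alone read 5.45 ± 0.406, 5.45 ± 0.815 and 5.92 ± 0.696, and Ugt2b38 16.7 ± 2.16, 11.8 ± 1.54 and 14.3 ± 1.58 on this scale, and without Kap they read 10.5, 11.9 and 12.9 and 32.2, 25.8 and 31.2 on average.

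All 9 markers of injured tubule rose in Pcy PBS mice (median log2 fold change 2.82), from sums of 667 to 1364 CPM in wild type to 3618 to 9262 CPM, and edgeR called 0 with RGLS4326, where sums were 1221 to 7541 CPM, 3 markers had an unadjusted p under 0.05 and DESeq2 called 2. Collecting duct markers summed to 573 to 959 CPM in wild type, 1355 to 2880 CPM with PBS and 871 to 1970 CPM with RGLS4326, with 7 of 9 higher in Pcy PBS mice and 5 lower with treatment. The other 2, Slc4a1 and Slc26a4, were lower in Pcy PBS mice (log2 fold changes −0.96 and −0.38, adjusted p = 9.48e-06 and 0.00934). All 6 macrophage and all 7 lymphocyte markers and 7 of 8 fibroblast markers rose in Pcy PBS mice, and 0 of these 21 were called with RGLS4326 by edgeR, where 3 had an unadjusted p under 0.05 and DESeq2 called 1. Macrophage markers summed to 188 to 217 CPM in wild type, 472 to 827 CPM with PBS and 193 to 901 CPM with RGLS4326. The lowest macrophage, fibroblast and injured tubule sums among treated mice were all those of mouse 9. Of 6 markers of the thick ascending limb and distal tubule 5 fell and of 5 endothelial markers 2 fell in Pcy PBS mice, and with RGLS4326 2 tubule markers rose, whereas of the endothelial markers edgeR and DESeq2 called 0 and 0 had an unadjusted p under 0.05. The part of these marker changes in the transferase values was not tested.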

How the data were processed

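The authors made TruSeq stranded mRNA libraries from frozen kidneys, sequenced paired reads of 75 bases, removed adapters with TrimGalore, aligned reads to GRCm38 with STAR and counted uniquely mapped reads per gene with HTSeq 0.6.1. What was deposited for each mouse is a table of raw counts over 23509 genes, without normalization. The annotation and the strand setting of HTSeq are not given in the sources used here. Per mouse, 8.39% to 10.1% of the reads in the tables fell on no gene, 0.305% to 0.411% were ambiguous and 17.8% to 21.2% were not uniquely aligned (26.9% to 31.1% in all), and these rows were left out.

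The 15185 genes kept by filterByExpr were scaled by TMM and fitted over all 31 mice with the quasi-likelihood test of edgeR 4.0.16 in R 4.3.3, each group having its own coefficient, with Benjamini-Hochberg adjustment over all genes tested. Standard errors are approximate and were taken from the size of the log2 fold change and the root of its F statistic. Precision is limited by depth for genes with few counts. The procedure was also run on simulated counts, and the outcome is not given here. Groups and replicate numbers come from the sample titles, and the labels list each as a separate mouse. Sequences and coordinates come from RefSeq (GRCm38.p6), and exon lengths from GENCODE vM21, in which all 40 members were found. Not all promoter matches are reported here. Python 3.11.15 with scipy 1.17.1 served for the other steps.

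Values by mouse are given for members called between RGLS4326 and PBS, for the 5 largest rises and falls against wild type and for the member of each family with the highest mean level per kb. Ugt2b5 and Ugt2b37 were added after their values were seen. Of each list of other genes, up to 3 with the smallest p were named. The members and lists were chosen with earlier results of these data known. Alternatives covered the filter, normalization, DESeq2 1.42.0, the mice in the model, library series, replicate block, a threshold on size and leaving out each mouse. Same-numbered mice of different groups are different animals. Over genes their deviations from the group means correlated by −0.085 on average between PBS and RGLS4326 (12 pairs), so the numbers do not pair the mice.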

Additional observations from a re-analysis of the deposited data

Results flagged for a closer look

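Within the 5 wild-type mice, the gap of a member's highest or lowest mouse to its neighbour, divided by the range, was set against Dixon's 95% critical value of 0.71. Chance sets apart about 1 group in 20, and 4 of 40 members were set apart. The share of all genes set apart in these mice is not given here, so the count is not read as an excess. Gstm7 read 9.02 CPM in wild-type mouse 1 against 6.74 to 7.11 CPM in the others (ratio 0.841). In wild-type mouse 5, Ugt2b36 read 1.69 CPM against 0.119 to 0.532 CPM (ratio 0.736), Ugt2b37 read 148 CPM against 29.9 to 51.3 CPM (ratio 0.820), and Ugt2b5 read 5.36 CPM against 1.78 to 2.06 CPM (ratio 0.921). These 3 genes follow one another among the members of the cluster on chromosome 5. Alb read 178 CPM in the same mouse against 17.2 to 45.0 CPM in the other wild-type mice. The hepatocyte markers Ahsg, Apoa2, Apoc3, Hpx, Serpina1a and Serpina1b were also highest in this mouse among wild-type mice, with Ahsg at 20.4 CPM. Ttr and Apoh were not. Ttr read 17.5 CPM there against 161 and 162 CPM in wild-type mice 3 and 4, and Apoh 34.5 CPM against 60.2 CPM in wild-type mouse 1. The part of liver-type RNA in these values was not tested.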

How the results depend on the processing

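The number of members called between Pcy PBS and wild type was 29, from 20 to 30 under the other settings and from 28 to 30 when any mouse was left out. Between Pcy RGLS4326 and Pcy PBS it was 9, from 7 to 13 with other filters, scalings, DESeq2, only the Pcy mice in the model or the library series as a covariate, and from 2 to 16 when a mouse was left out. With only the Pcy mice in the model, 3 rose and 4 fell, Sult2b1 being added to the falls, Ugt3a1 and Ugt3a2 not called and Ugt2b36 not tested. It was 4 with a threshold of 0.5 on the absolute log2 fold change and 0 within library series 1, 2 and 3 alone, each of which holds fewer mice. With the replicate block it was 0, where an unadjusted p under 0.05 was reached by 14 of 38 members and 11 of all 14657 genes were called. Replicate numbers share only a number, so this loss is not read as a weaker effect. Against wild type, the replicate block gave 29 and 27 calls for PBS and RGLS4326. Between Pcy RGLS4326 and wild type the count was 25, from 21 to 29 when a mouse was left out, and 0 within library series 2, where 61 of 14852 genes were called. The causes were not tested.

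None of the called values of the named members reversed its sign under the settings tried; values that were not called were not followed in this way. Upper quartile scaling moved the median of all genes by 0.12 in the comparison of PBS with wild type. Under it 12 members rose and 18 fell in Pcy PBS mice, Gsto1 and Ugt2b5 being called higher and Ugt2b36 no longer called. Members under 1 CPM, such as Ugt2b36, rest on few counts per library.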
